A study of Mus musculus with 50 samples.

Results

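The iron storage and uptake genes described here were 8 genes chosen by name: the ferritin chains Ftl1 and Fth1, transferrin (Trf), the transferrin receptor (Tfrc), the heme oxygenases Hmox1 and Hmox2, ferrochelatase (Fech) and the iron regulatory protein Ireb2. Of these, 7 had a row among the 11879 gene rows of the table, and Hmox1 was not analysed here. The list was drawn up because of the measured levels of Ftl1, which stood at the top of the table, and of Trf, which was on in part of the cells, so both of these patterns are given as a description.

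The values came from 50 single mouse cells of 1 group, iRunx1-iHECs, which are hemogenic endothelial cells induced in culture from embryonic stem cells of the C57BL/6 strain. The stem cells carried a Runx1 expression cassette in the Rosa26 locus that is switched on by doxycycline, and every cell described here shares that genotype and that treatment. Per the methods of the study, the cells were grown in medium supplied with iron-saturated transferrin protein. The study defines iHECs as CD31+CD41lowCD45-c-kit+CD201high. It prints this definition for iHECs from cells with Runx1 and Hoxa9 together, and the legend on sorting iRunx1-iHECs lists no markers. The labels name no culture or animal, so the 50 cells counted as 1 sample, there was no second group, and no test over replicates was possible. Cells are named by the pair of numbers in their titles (cell 4-6), which the labels leave unexplained. The first of these numbers runs from 1 to 4, with 11, 14, 13 and 12 cells, and it is used below to show whether a pattern recurred in subsets of the cells.

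Most cells take up iron bound to transferrin, which is carried inside by the transferrin receptor, and they store what they do not use in ferritin, a hollow protein shell built of light (Ftl1) and heavy (Fth1) chains. Part of the iron goes to mitochondria, where ferrochelatase puts it into heme, and heme oxygenases release it again when heme is broken down. The iron regulatory proteins Aco1 and Ireb2 sense iron and bind hairpins in messenger RNAs called iron-responsive elements. Bound before the coding sequence, as in the ferritins, they block translation, and bound after it, as in Tfrc, they protect the message from decay. Transcript and protein levels of ferritin can therefore differ, and only transcripts were measured here.

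The hairpins are printed because they separate the storage genes from the uptake gene by position and sequence. They were searched as a C, the bulged base, followed by NNNNN and by the loop CAGTGN, where N is any base, with the requirement that the 5 bases before the loop pair with the 5 bases after it, counting G with T as a pair. Only the sense strand of annotated transcripts was read, and no second motif was searched. Capitals mark the loop. The sequences, 5′ to 3′, are of GENCODE release M21 on the build GRCm38, the assembly that mm10 names. The windows lie at chr7:45459779-45459807 on the minus strand (Ftl1, 5′ UTR), at chr19:9982732-9982760 on the plus strand (Fth1, 5′ UTR), and on the plus strand in the 3′ UTR of Tfrc at chr16:32631219-32631247, chr16:32631598-32631626, chr16:32631663-32631691 and chr16:32631710-32631738, labelled a to d.
Ftl1: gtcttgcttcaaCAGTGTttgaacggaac
Fth1: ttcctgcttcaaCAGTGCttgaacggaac
Tfrc a: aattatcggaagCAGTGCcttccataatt
Tfrc b: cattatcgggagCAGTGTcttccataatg
Tfrc c: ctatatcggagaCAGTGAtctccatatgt
Tfrc d: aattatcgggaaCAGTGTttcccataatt

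The windows of the ferritin chains were identical at 26 of 29 positions. Against the windows of Tfrc they were identical at 9 to 13 positions, while the windows of Tfrc were identical to each other at 18 to 25. Among the 7 members with a row, these 3 genes held a match, and Trf, Hmox2, Fech and Ireb2 held none. Over all protein-coding genes of the annotation, 294 of 21877 (1.34%) had a match anywhere in a transcript. Of 75 scanned genes of the iron lists described below 6 had one, the other three being Slc40a1, Alas2 and Bola3. A match is a description of the letters and not a measured binding site.

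Expression was given as TPM, a transcript abundance scaled to transcript length and to the total of the cell, so that levels can be set side by side between genes as well as between cells. TPM keeps no sequencing depth, and each cell is described instead by how many genes exceeded TPM 1. That number lay between 2400 and 8615 with a median of 6223.5, and cell 4-6 at 2400 stood well apart from the next lowest cell at 4326. Of 10 endothelial genes 8 were above TPM 1 in every cell and all 10 in 50% of cells or more, against 7.15% and 53.2% of all rows. Egfl7 had the highest median of that list at 1044 TPM. The gate genes Pecam1 (CD31), Procr (CD201), Itga2b (CD41) and Kit (c-kit) had medians of 326, 314, 42.98 and 40.8 TPM. Ptprc (CD45) was listed at 0 in every cell (0 of 50, exact 95% interval 0% to 7.11%).

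**Figure D1:**
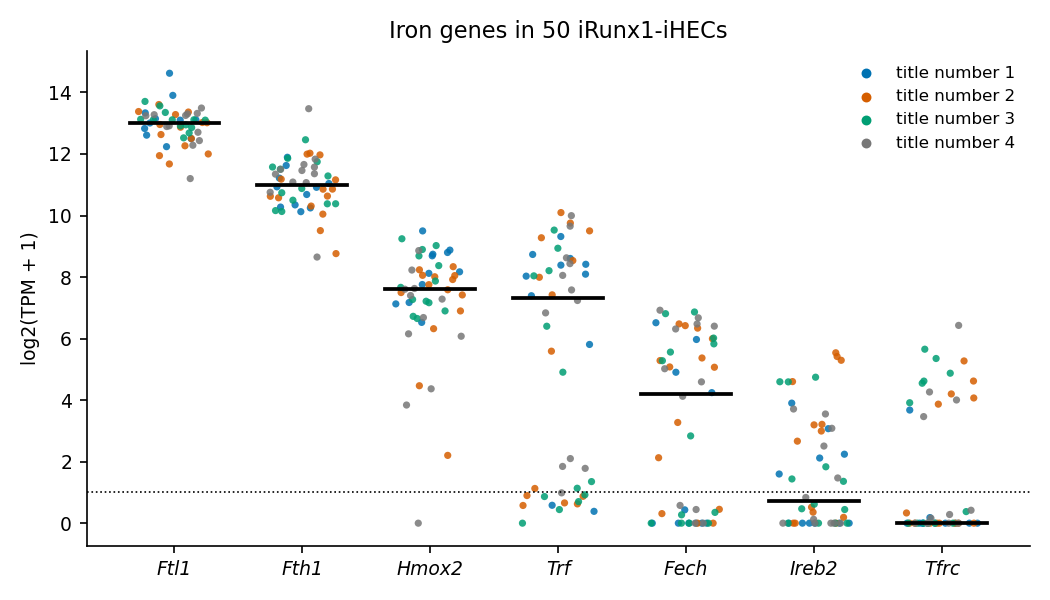
Levels of the 7 members in each of the 50 cells as log2(TPM + 1), 1 point per cell, coloured by the first title number; horizontal bars are medians and the dotted line is TPM 1. The ferritin chains form compact clouds, whereas Trf splits into 31 cells at 29.01 TPM or more and 19 cells at 3.29 TPM or less, and Tfrc into 16 cells at 10.0 TPM or more and 34 at 0.34 TPM or less.

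Ferritin light chain led the table. Ftl1 (chr7:45457944-45459884, minus strand) encodes the chain that helps iron form a mineral core inside the shell. Its level was 2353 TPM in the lowest cell (cell 4-1), 8304 TPM in the median cell and 25258 TPM in the highest (cell 1-7). The middle 50% of cells lay between 6404 and 9947 TPM, a 1.55-fold span, so most cells carried much the same level and cells 4-1 and 1-7 lay at the ends of a 10.7-fold range. By median it was the highest of all 11879 rows. Within single cells it was the highest row in 15 cells, among the 10 highest in 45 and among the 100 highest in all 50.

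The order at the top of the table was not a wide one. The next rows by median were Mest, an imprinted gene, at 7504 TPM, beta-actin (Actb) at 7393 TPM and cyclophilin A (Ppia) at 6044 TPM. Ftl1 was above Mest in 27 of 50 cells, above Actb in 28 and above Ppia in 38, so the top places were not separated from cell to cell. The reference genes of the study lay lower, with medians of 1842 TPM for B2m and 313 TPM for Gapdh. From cell to cell Ftl1 varied about as much as other abundant genes: the SD of log2(TPM + 1) was 0.57 over 50 cells, and 31 of the 50 rows nearest to it in median level had a lower one (median of those rows 0.54). Taken by first title number, the median of Ftl1 was 7721 to 8847 TPM.

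The heavy chain was lower and more variable. Fth1 (chr19:9980598-9985098, plus strand) encodes the chain that oxidises incoming iron. It measured 401 TPM in the lowest cell (cell 4-1), 2030 TPM in the median cell and 11364 TPM in the highest (cell 4-6), with the second highest cell at 5643 TPM. It took place 40 among all rows by median and was among the 100 highest rows of a cell in 38 cells. Its SD of log2(TPM + 1), 0.86, was above that of 80 of the 89 rows nearest in median level (median 0.55). The highest value thus came from the cell with the fewest genes above TPM 1, and the part of cell quality in it was not tested. By first title number the median of Fth1 was 1932, 1719, 1881 and 2723 TPM.

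Together the ferritin chains made up a median of 1.095% of the summed TPM of a cell. The share ran from 0.292% in cell 4-1 to 2.98% in cell 1-7 (SD 0.44 over 50 cells), and its medians by first title number lay between 0.983% and 1.17%. In 49 of 50 cells the light chain was the higher of the pair. The log2 ratio of Ftl1 to Fth1 had a median of 2.117 (SD 0.80, n = 50 cells), which is 4.34-fold on the linear scale. The ratio was widest in cell 2-15 at 9.46-fold, and cell 4-6 was the exception with 0.889-fold, below the next lowest cell at 1.32-fold.

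**Figure D2:**
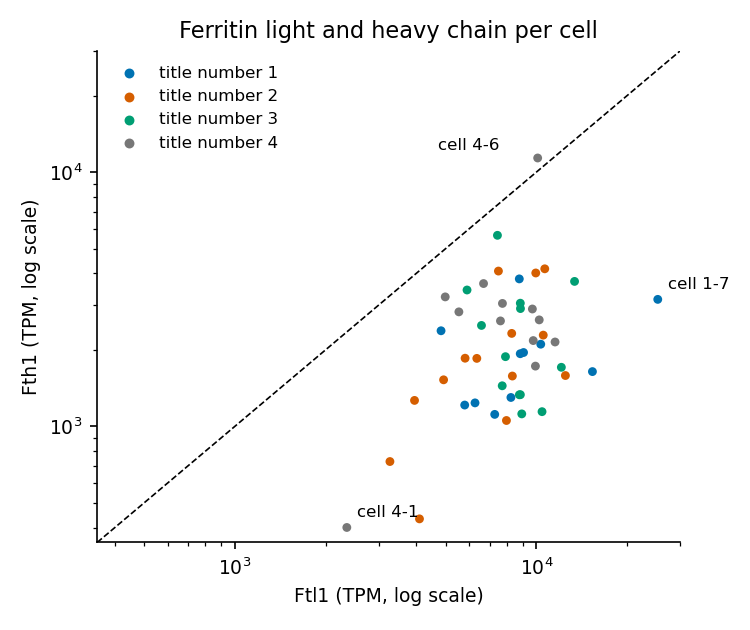
Ftl1 (horizontal axis) and Fth1 (vertical axis) in TPM on log axes, 1 point per cell, coloured by the first title number, with a dashed line where both are equal. Of the 50 cells, 49 lie below the line, and cell 4-6 lies above it with 10100 TPM of Ftl1 and 11364 TPM of Fth1.

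Cells with more of one chain did not regularly carry more of the other. Spearman's rho of Ftl1 and Fth1 was 0.27 over 50 cells, and Pearson's r of log2(TPM + 1) was 0.44, or 0.32 without the 2 cells farthest from the median of Ftl1. The relation did not recur in every subset, with rho between -0.30 and 0.64 within the first title numbers. Without the cells of number 2 it was 0.05. Cell 4-1 was the lowest for both chains, at 2353 and 401 TPM. The same cell was the highest of the 50 for Fech at 120 TPM, and its Trf stood at 150 TPM. All cells share the scale of TPM, on which a rise of one abundant gene lowers the others.

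Transferrin was on in part of the cells. Trf (chr9:103204001-103230444, minus strand) encodes the secreted carrier of iron in blood plasma, made in the body chiefly by the liver. Its level ran from 0 in cell 3-14 over a median of 159 TPM to 1093 TPM in cell 2-7, with a second cell at 1020 TPM. It was above TPM 1 in 37 of 50 cells (74%, exact 95% interval 59.7% to 85.4%), and the median of those cells was 265 TPM. The interval covers counting error over cells only, as do all such intervals below.

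The levels of Trf fell into a low and a high set. Ordered by level, the widest step on the log2 scale lay between 3.29 and 29.01 TPM and left 19 cells below it, with a median of 0.83 TPM, and 31 above it, with a median of 334 TPM. No cell lay between these values, and 27 cells were above 100 TPM. As a consequence the share of cells was 62% with a level of TPM 5 and also with TPM 10. Within the first title numbers the cells above the step were 9 of 11, 8 of 14, 6 of 13 and 8 of 12, so both sets were present in each. Trf also had the widest spread of its neighbourhood: its SD of log2(TPM + 1) was 3.70, and the 100 rows nearest in median level had SDs of 0.57 to 3.42.

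Most cells of the low set had a value above 0 for Trf. It was listed at 0 in 1 cell, and 12 cells had a value above 0 and up to 1. Among the 3092 rows above TPM 1 in 30 to 44 cells, the median row was listed at 0 in 8 cells, and 81 rows (2.62%) were at 0 in at most 1 cell. The annotation has a further gene model, Gm20425, on the same strand from 103190208 to 103230307, which shares 1517 bases with Trf at 100% identity and has no row. The neighbour Srprb, whose region that model reaches, had a median of 51.1 TPM, and its rho with Trf was 0.15 over 50 cells (-0.25 to 0.53 within the first title numbers). The part of such shared reads in the low values was not tested.

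With genes per cell Trf had a rho of -0.02 over 50 cells (-0.31 to 0.34 within the first title numbers). The gate genes Pecam1, Kit, Procr and Itga2b had rho between -0.02 and 0.08 with it. Hepatocytes and visceral endoderm, which make transferrin in the embryo, could be checked by few markers. The iHEC definition includes CD31, c-kit and CD201. The lowest of the 50 cells had 50.9 TPM for Pecam1, 3.05 TPM for Procr and 0.11 TPM for Kit. Kit was above TPM 1 in 47 cells. Whether hepatocyte or visceral endoderm cells were among the 50 was not tested. Of 15 genes of these cell types 2 had a row. Apoa2 was above TPM 1 in 5 cells (highest 141 TPM) and Apoa1 in 1 cell (12.2 TPM), and the mean of that list had a rho of -0.23 with Trf. The other 13, among them Afp, Alb and Ttr, had no row and were not analysed here.

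**Figure D3:**
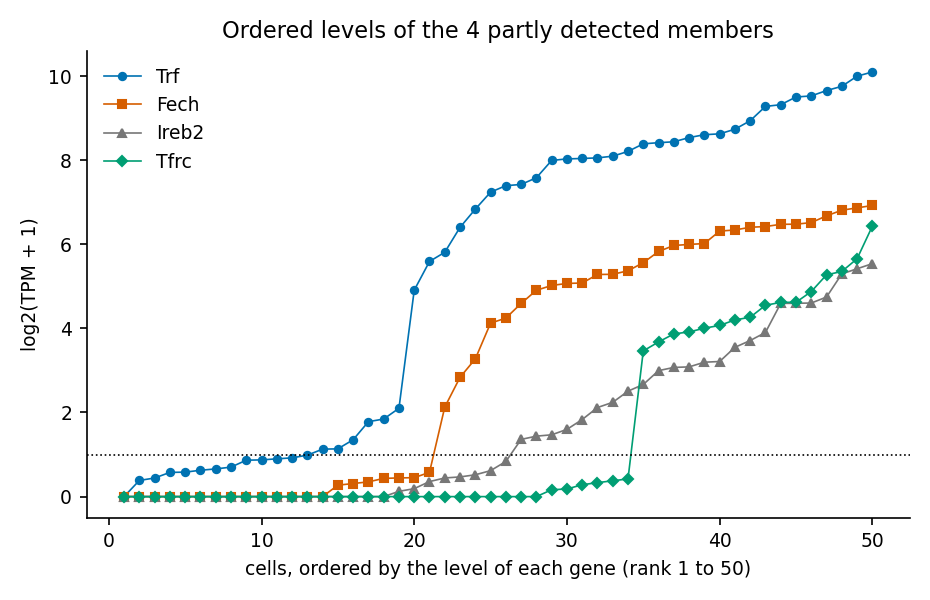
Levels of Trf, Fech, Ireb2 and Tfrc as log2(TPM + 1), with the 50 cells ordered separately for each gene from lowest to highest; the dotted line is TPM 1. Trf steps from 3.29 to 29.01 TPM after the 19 lowest cells and Tfrc from 0.34 to 10.0 TPM after the 34 lowest cells, whereas Ireb2 climbs without a comparable step.

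The transferrin receptor was seen in 16 cells, against 37 for its ligand. Tfrc (chr16:32608920-32632794, plus strand) encodes the membrane protein that takes up iron-loaded transferrin, and dividing cells and red cell precursors are known for high levels of it. It was listed at 0 in 28 cells, including the median cell, and reached 85.1 TPM in cell 4-12 and 49.4 TPM in the next. These 16 of 50 cells were above TPM 1 (32%, exact 95% interval 19.5% to 46.7%) and had a median of 20.3 TPM. No cell lay between TPM 1 and 10, so that all 16 were also above TPM 10. The counts by first title number were 1 of 11, 5 of 14, 6 of 13 and 4 of 12.

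Tfrc tended to be higher in cells in which more genes were seen. Its rho with genes above TPM 1 was 0.35 over 50 cells, and 0.13 to 0.50 within the first title numbers. The sequencing depth of the cells is unknown, and its part in this relation was not tested. Of the cells, 13 had both ligand and receptor above TPM 1, 24 had Trf alone, 3 had Tfrc alone and 10 had neither. The rho between them was 0.14 over 50 cells (0.01 to 0.49 within the first title numbers). The mean of 14 cell division genes had a rho of 0.15 with Tfrc, and the single genes went both ways, from -0.22 to 0.31. Of 9 erythroid genes with a row, 8 were above TPM 1 in fewer than 10% of cells, against 14.9% of all rows, and Hbb-b2 was at 0 in all cells. The other, Epor, was above TPM 1 in 8 cells (highest 129 TPM) and had a rho of 0.16 with Tfrc. The summed level of the 9 genes was between 0 and 1729 TPM, and 15 cells had any of them above TPM 1. The rho of their mean with Tfrc was -0.05.

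Heme breakdown was represented by the constitutive enzyme. Hmox2 (chr16:4726361-4766742, plus strand) encodes the heme oxygenase that cells make without induction. It was listed at 0 in cell 4-6, had a median of 195 TPM and reached 723 TPM in cell 1-4. Above TPM 1 it was found in 49 of 50 cells (98%, exact 95% interval 89.4% to 99.9%), and above 100 TPM in 40. The single zero belonged to the cell with the fewest genes, and without the cells under 5000 genes the share was 100%. Its spread was ordinary for its level, with an SD of 1.75 on the log2 scale against a median of 1.67 in the 100 nearest rows. On the opposite strand the gene Cdip1 overlaps Hmox2, with 767 identical bases and no row. Whether strand was used in counting is not given in the sources used here.

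The last step of heme synthesis was seen in a smaller part of the cells. Fech (chr18:64452914-64490251, minus strand) encodes the enzyme that inserts iron into the porphyrin ring. It was listed at 0 in 14 cells, had a median of 17.2 TPM and was highest in cell 4-1 at 120 TPM. It passed TPM 1 in 29 of 50 cells (58%, exact 95% interval 43.2% to 71.8%), of which 22 lay between 10 and 100 TPM. By first title number these were 4 of 11, 10 of 14, 7 of 13 and 8 of 12 cells.

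Ireb2 (chr9:54863789-54912530, plus strand) encodes the iron regulatory protein that is degraded when iron is plentiful. It was above 10 TPM in 10 of 50 cells and at 10 TPM or less in the others. Its values ran from 0 in 18 cells over a median of 0.66 TPM to 45.5 TPM in cell 2-15. It was above TPM 1 in 24 of 50 cells (48%, exact 95% interval 33.7% to 62.6%), and no cell reached 100 TPM. Ireb2 had no such step as Trf and Tfrc, so its share depended on the level chosen and was 32% at TPM 5 and 20% at TPM 10. Its rho with genes above TPM 1 was 0.38 over 50 cells, the highest of the members.

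By median the members thus ranked Ftl1, Fth1, Hmox2, Trf, Fech, Ireb2 and Tfrc. The first steps of this order held in nearly every cell, with Ftl1 above Fth1 in 49 and Fth1 above Hmox2 in 50 cells. Hmox2 and Trf were not separated, since Hmox2 was higher in 30 cells and Trf in 20. Trf was above Fech in 37 cells and below it in 13. Fech was above Ireb2 in 29, below it in 12 and equal, at 0, in 9. Ireb2 was above Tfrc in 21, below it in 16 and equal in 13, so the low end of the order was not settled either.

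The members did not vary as 1 group. Over the 21 pairs rho lay between -0.20 and 0.39 with a median of 0.07, and 19 pairs were below 0.3 in size. The highest was that of Tfrc and Fech, 0.39 (Pearson's r of log2 values 0.37, 0.31 without the 2 farthest cells), with 0.19 to 0.63 within the first title numbers. Tfrc and Ireb2 followed with 0.33, which was 0.23 once genes per cell were taken into account and ranged from -0.10 to 0.79 within the numbers. Both pairs are of genes with many zeros, in which rho of this size is weak. The sign was the same in all 4 numbers for 3 pairs, namely Ftl1 with Ireb2, Trf with Tfrc, and Tfrc with Fech.

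**Figure D4:**
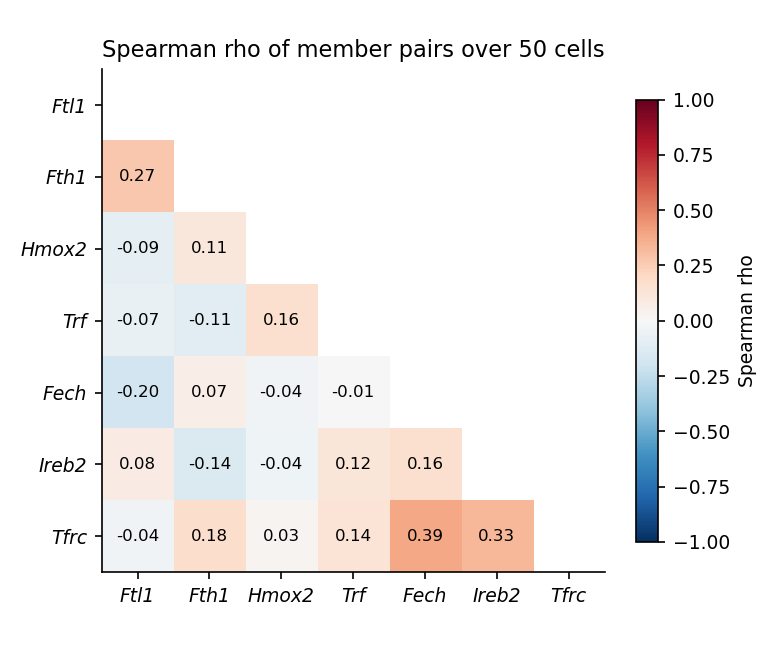
Spearman's rho over 50 cells for the 21 pairs of members, printed in each square and coloured from blue (-1) to red (1). Values lie between -0.20 (Ftl1 with Fech) and 0.39 (Tfrc with Fech).

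The members were set among 60 rows of 6 iron and heme lists that together name 76 genes. Of these rows 39 (65%) exceeded TPM 1 in 50% of cells or more, against 6324 of all 11879 rows (53.2%). All cells were above that level for 6 (10%), against 849 of all rows (7.15%). The median row of the lists had a median of 23.9 TPM and was found in 70% of cells, while the median over all rows was 2.1099 TPM and 52%. Of the 7 members 5 were found in at least 50% of cells and 2 in all. The counts by list that follow are to be read beside the same 53.2% of all rows. No test of the lists was made.

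Of the 6 lists, storage and chaperone genes had the highest median share of cells, 100%. Of 5 rows 4 were above TPM 1 in all cells: the ferritin chains and the iron chaperones Pcbp1 (median 655 TPM) and Pcbp2 (128 TPM), which hand iron to ferritin. Ncoa4, the receptor that delivers ferritin to the lysosome, had 32.6 TPM and 38 cells. In the list of uptake and release 3 of 11 rows were in at least 50% of cells. These were Snx3, a sorting protein of receptor recycling, at 681 TPM in all cells, Trf, and the ferroxidase Heph at 14.2 TPM in 33 cells. The iron importer Slc11a2 was in 24 cells, the iron exporter Slc40a1 in 5 (highest 153 TPM) and the ferrireductase Steap3 in 4 (highest 33.6 TPM).

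Of the sensing list 2 of 4 rows were in at least 50% of cells. Fbxl5, the ubiquitin ligase subunit that marks Ireb2 for degradation, had a median of 45.4 TPM and was in 37 cells, and Aco1, the other iron regulatory protein, had 12.5 TPM and was in 30. Bmp6, which drives hepcidin in the liver, was in 1 cell at 66.7 TPM. Of the mitochondrial iron and iron-sulfur cluster genes 13 of 19 rows were in at least 50% of cells, where the share over all rows was 53.2%. The highest were Glrx5 at 288 TPM in all cells, the cluster scaffold Iscu at 281 TPM in 48 cells and Isca1 at 200 TPM in 49. The mitochondrial iron importers Slc25a37 and Slc25a28 were in 21 and 18 cells.

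Heme synthesis had 8 of 11 rows in at least 50% of cells. The porphyrinogen transporter Tmem14c had 231 TPM in 48 cells, and Urod had 64.4 TPM in 34. The first enzyme of the pathway was present in its general form, Alas1 (51.5 TPM, 45 cells), whereas the erythroid form Alas2 was in 2 cells (highest 57.2 TPM). Among genes of heme breakdown and transport 8 of 10 rows were in at least 50% of cells. Pgrmc1 (202 TPM, 49 cells), Hmox2 and the exporter Abcg2 (126 TPM, 48 cells) were highest, and the biliverdin reductases Blvrb and Blvra had 49.6 and 32.6 TPM. Haptoglobin (Hp) was listed at 0 in all 50 cells (exact 95% interval 0% to 7.11%).

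**Figure D5:**
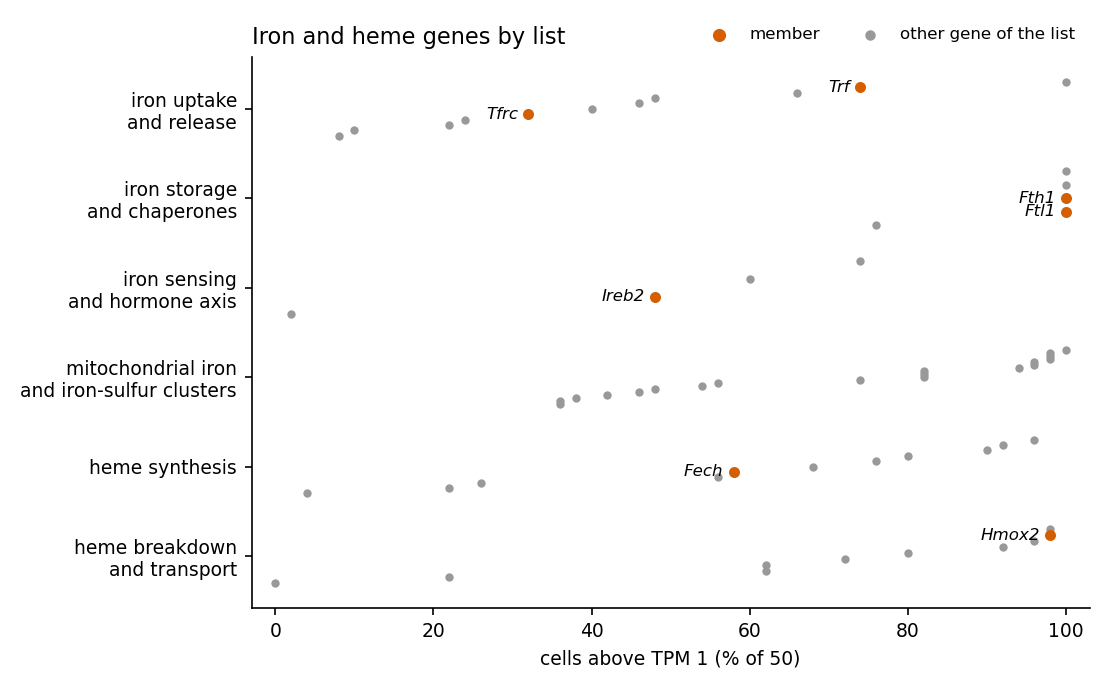
Share of the 50 cells above TPM 1 for each gene of the 6 iron and heme lists; 1 point is 1 gene, members are orange and named, and the vertical offset within a list only separates points. The ferritin chains stand at 100%, Hmox2 at 98%, Trf at 74%, Fech at 58%, Ireb2 at 48% and Tfrc at 32%.

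The ferritin genes and Hmox1 are also known targets of the oxidative stress factor NRF2. Of 11 other targets 5 were in at least 50% of cells, where the share over all rows was 53.2%. Prdx1 (1086 TPM) and Txn1 (630 TPM) were in all cells, Gclm had the next highest median with 49.03 TPM and was in 42 cells, Txnrd1 was in 44, and Slc7a11, the cystine importer, was in 3 cells. The mean log2(TPM + 1) of these targets had a rho of 0.31 with Ftl1 and of -0.07 with Fth1 over 50 cells. Among the members its highest rho was 0.37, with Tfrc. Macrophages are a further cell type rich in ferritin. The iHEC definition is CD45-, and Ptprc (CD45) was listed at 0 in all 50 cells. Of 8 macrophage genes with a row, Emr1, C1qa, C1qb and Fcgr1 were at 0 in all cells, and Csf1r was above TPM 1 in 3 cells (highest 80.7 TPM). The summed level of the list was between 0 and 1261 TPM with a median of 30.98. The mean of the list had a rho of 0.10 with Ftl1 and 0.13 with Fth1. Its most often seen genes differed: Cd68, in 22 cells, had rho of -0.12 and -0.05 with the light and the heavy chain, Lyz2, in 15 cells, had 0.34 and 0.31, and Mrc1, in 14 cells, had -0.02 and -0.0047. The part of these genes in the ferritin levels was not tested. Of 8 mesenchymal genes 5 had a row and their sum did not exceed 9.15 TPM in any cell.

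The rows most like a member were looked for among 9103 rows that exceeded TPM 1 in 20% of cells or more, by Spearman's rho over the 50 cells. Because the highest of so many values were picked, they are given as a description only. The 5 rows nearest to Ftl1 were Mkln1 (rho 0.60, 0.38 to 0.63 within the first title numbers), Mettl21d, Dazap2, Nup160 and Dscr3, the last with 0.48. At the other end stood Ccdc59 (-0.50) and Marcks (-0.53, -0.73 to -0.39 within the numbers). Fth1 was nearest to Cox8a (0.55, 0.32 to 0.70), Slc25a5, Alpk3, Pex7 and Ndufb8 (0.46, -0.08 to 0.71). Opposite to it were Maml1 (-0.56) and Notch1 (-0.59, -0.81 to -0.33), a coactivator and a receptor of Notch signalling. No row was among the first 5 of both ferritin chains.

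For Trf the nearest rows were Gm7334 (0.53, 0.26 to 0.76), Wdr41, Zc3h12a, the zinc importer Slc39a4 (0.49, 0.36 to 0.84) and Ier3 (0.48), with B4galt2 (-0.50, -0.59 to 0.0083) and Psmd6 (-0.55) opposite. Runx1, whose cassette the cells carried, was looked at after its values were seen. It had a median of 132 TPM and was above TPM 1 in 43 cells, and its rho with Trf was 0.38 (Pearson's r of log2 values 0.47, 0.42 without the 2 farthest cells), with 0.16 to 0.54 within the first title numbers. Transcripts of the cassette and of the Runx1 gene itself are not told apart in these values. Among the rows nearest to Tfrc were Hspd1 (0.55, 0.16 to 0.71), Peo1, Mettl5 (0.54, -0.06 to 0.94) and Ppp2r3c (0.53), and S100a10 and Tgif1 were lowest, both at -0.47. Ndufb8, B4galt2, Mettl5 and Tgif1 changed sign in 1 of the 4 first title numbers.

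The level of Ftl1 carries a limit of its own. Its transcript of 968 bases matched 8 other loci of the annotation at 90.8% to 99.6% identity over at least 200 bases, among them Ftl1-ps1 with 910 aligned bases, and none of them had a row. Fth1 matched 1 such locus, Gm6977, at 90.5% over 524 bases. How reads that fit several loci were assigned is not given in the sources used here, so both ferritin levels are uncertain by the share of reads that these copies may have taken or given.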

How the data were processed

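The deposited table holds TPM per gene and cell. The authors amplified the cDNA of each sorted cell with a whole-transcriptome kit, aligned reads to mm10 with HISAT2 2.1.0 and estimated TPM with StringTie 1.3.4, as the submitters' processing notes and the methods state. Columns summed to 942975 to 970894 TPM. Depth is unknown, no molecular identifiers were named, and 0 per-sample columns were left unused.

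Medians, ranges, SDs of log2(TPM + 1) and shares of cells above TPM 1 with exact Clopper-Pearson 95% intervals were computed with Python 3.11.15, numpy 2.4.6, pandas 2.3.3 and scipy 1.17.1, and transcripts were compared with BLASTN 2.17.0. The likeness search was tested on simulated data. No cell was left out, and cells were neither clustered nor searched for doublets. The members, the lists and the rule for named genes were chosen with earlier results of these data known. That rule took the members, the leading and the rarest rows of each list, the rows next to Ftl1, the 5 rows most like and the 2 least like Ftl1, Fth1, Trf and Tfrc, and the gate and reference genes. Runx1, Srprb, Alas1, Slc11a2, Slc40a1, Slc25a37, Slc25a28, Blvra, Blvrb, Ncoa4, Apoa1, Txnrd1 and the erythroid and macrophage genes given by name were named after their values were seen. Values of 2 rows that the rule took are not reported here. Of 7 pluripotency genes 0 had a row, and they were not analysed here.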

Additional observations from a re-analysis of the deposited data

How the results depend on the processing

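Alternatives were a level of TPM 0, 5 or 10, a pseudocount of 0.1, dropping all cells that share a first title number, dropping the 7 cells under 5000 genes, and rescaling TPM to a common total with or without the 83 ribosomal protein rows. A value counted as kept within its exact interval for a share, within 1.5 times for a count, within the SD over cells for a mean log2 level, and otherwise within the SD over the 4 title numbers. The SD over cells is a wide bound for the low members. With the pseudocount of 0.1 the mean log2 level fell from 1.49 to -0.62 for Tfrc and from 1.65 to 0.08 for Ireb2, and both counted as kept. Without the ribosomal protein rows the median of Ftl1 was 9982 TPM and the ferritin share 1.26%, since the remaining rows then fill the total. Counting every value above 0, Trf was found in 98% of cells, Fech in 72% and Ireb2 in 64%. Ireb2 fell to 32% above TPM 5 and 20% above TPM 10, and Hmox2 reached 100% without the cells of number 4 or those under 5000 genes, which also gave 3 members in every cell in place of 2. The rho of Ftl1 and Fth1 was 0.05 to 0.41 with a title number left out, and that of Trf with genes per cell -0.14 to 0.08. The count of 39 iron list rows ranged from 38 to 44. Of the first 5 like rows, 4 or 5 were kept for each gene by a partial rho given genes per cell, and likewise among 10572 rows above TPM 1 in at least 3 cells.

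No paired analysis was possible because the cells form a single group with no shared replicate numbers. The 50 cells are 1 sample, so no spread between cultures is known. Unknown depth limits the low members, and a value of 0 means only that the gene is listed at 0. What the first title number stands for is not given, so a batch within these cells could not be named.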
